A study of Mus musculus with 8 samples.

Results

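The cytosolic ribosomal protein genes were examined in regulatory T cells (Treg cells) of the mouse. They were taken as every row of the expression table whose symbol is Rpl or Rps with a number and at most 1 trailing letter a, x, y or l, together with Rplp0, Rplp1, Rplp2 and Rpsa. This gave 82 of 24453 genes: 46 encode proteins of the large subunit, 3 of them the P stalk, 30 encode proteins of the small subunit, and 6 have symbols of paralogs or rare forms ending in l. The filter, 2 libraries with a value of 1 or more, was passed by 81 of them and by 15547 genes in all. The exception was Rpl10l, a testis form of Rpl10, which was listed at 0 in every library. The member just inside that limit in level was Rpl32l, at 0 in both T138 libraries and between 1.06 and 9.88 in the others.

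Messenger RNA was sequenced from CD4-positive, Foxp3-positive T cells sorted by flow cytometry. The 8 libraries comprise 2 of T138 and 3 of T143, which are mouse lines derived by nuclear transfer, and 3 of wild-type (WT) mice. All carry the label NOD-Foxp3GFP-Rag1-/-, WT included, so a Foxp3 reporter and a Rag1 knockout are labelled for every group, and it is unclear if WT mice lacked Rag1. Per the series description, T138 stands for Treg cells that arise naturally, while T143 showed signs of development induced by agonist. Each line was founded with 1 T cell nucleus, so the T138 and T143 groups each represent a single line. Ages are not given in the sources used here, and no treatment was applied. For 2 libraries the source name conflicts with the title: T143 replicate 1 is given there as T138, and WT replicate 1 as T143. Their titles and other labels give the group used here. Xist, the RNA made from the inactive X chromosome, stood at 19143, 24992 and 24143 in T143, at 2.95 and 0 in the T138 pair and at 35.13, 129.9 and 0 in WT. By that gene both libraries with a conflicting source name lay with the group of their title. Since Xist was high in every T143 library and in no other, sex as read from it cannot be told apart from the T143 line.

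A ribosome is built from ribosomal RNAs and a copy of nearly every protein of this family, and its subunits are assembled in the nucleolus before export. Because the proteins are needed in equal numbers, their mRNAs are abundant in growing cells and are controlled largely as a group. Many start with a C followed by a run of pyrimidines, the 5′ terminal oligopyrimidine (TOP) tract, through which the kinase complex mTORC1 and the protein Larp1 set their translation and stability. In T cells this programme is known to accompany activation and growth.

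The annotated start of 61 members was found in a RefSeq table of GRCm38.p6. A TOP start, defined as a C within 5 bases of the annotated start followed by at least 4 bases that are each C or T, was present on the coding strand in 29 of the 61 (47.5%), against 23.6% of 11488 tested genes outside the family and 21.2% of all 27025 genes in the table. The windows below run from 10 bases before the annotated start to 20 bases from it on, with the tract in capitals, and show members whose values are described further on. Those with a tract lie at chr2:39005112-39005141 (minus strand) for Rpl35, chr17:24720053-24720082 (plus) for Rps2, chr7:141447641-141447670 (plus) for Rplp2, chr4:86857348-86857377 (minus) for Rps6, chr7:45128726-45128755 (minus) for Rpl13a and chr3:90213629-90213658 (minus) for Rps27. Those without one lie at chr5:115559457-115559486 (plus) for Rplp0, chr11:68901556-68901585 (plus) for Rpl26 and chr9:64173377-64173406 (plus) for Rpl4.
Rpl35: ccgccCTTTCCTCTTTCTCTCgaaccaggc
Rps2: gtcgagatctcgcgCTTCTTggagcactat
Rplp2: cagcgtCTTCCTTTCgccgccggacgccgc
Rps6: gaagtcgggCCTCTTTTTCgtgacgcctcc
Rpl13a: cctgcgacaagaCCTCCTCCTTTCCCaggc
Rps27: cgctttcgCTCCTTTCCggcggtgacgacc
Rplp0: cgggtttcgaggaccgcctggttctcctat
Rpl26: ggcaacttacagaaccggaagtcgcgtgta
Rpl4: tttcctgtgggagcagccgggtagagagga
A missing tract says only that these letters are not at the annotated start.

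Deposited values are a signal, here called the normalised read count: gene read counts divided by a factor per library, so that every library sums to 15.59 M. The recovered reads numbered 15.84 and 18.41 M in T138, 7.83 to 12.6 in T143 and 14.64 to 22.64 in WT. A count of 3 reads corresponds to a value of 2.07 to 5.97, so a 0 leaves room for values up to that level. Changes are differences of group means of log2(value + 1) with the standard error (SE) of the limma fit, called at a Benjamini-Hochberg adjusted p under 0.05 over 15547 genes. The 10 T cell and Treg markers were detected in every library. They took 0.889 and 0.911% of the signal in T138, 0.565, 0.458 and 0.406% in T143 and 0.921 to 1.03% in WT. Of them 4 were called lower in T143 than in T138 and 5 lower than in WT, and none was called higher. Among all genes tested 10.2% and 12.1% were called lower in these comparisons. Foxp3, the defining factor of Treg cells, stood at 3920 to 8694 in T143 against 41161 to 41854 in T138 and 29773 to 36362 in WT. The 16 neutrophil markers took 0.165 and 0.0312% of the signal in T138, 0.622, 1.06 and 3.82% in T143 and 0.000548 to 0.00601% in WT, where Mmp8 and Retnlg were at 0 in all libraries. Neutrophil markers called higher numbered 11 in T143 against T138, 15 in T143 against WT and 11 in T138 against WT. The 12 dendritic and MHC class II markers took 0.669 and 0.503% in T138, 0.0449 to 0.185% in T143 and 0.00838 to 0.0111% in WT. Among them 7 were called lower in T143 than in T138, and 11 were called higher than WT in each line. The 9 monocyte and macrophage markers took 0.0338 and 0.0212% in T138, 0.0686, 0.19 and 0.286% in T143 and 0.00263 to 0.00318% in WT, with 3 called higher in T143 than in T138 and 9 than in WT. The 12 erythroid markers took 0.0122 and 0.0245%, 0.035, 0.187 and 0.101%, and 0.00394 to 0.012%, with 6 and 12 called higher. Among all genes tested 10.8% were called higher in T143 than in T138, 11.7% in T143 than in WT and 5.74% in T138 than in WT. The part of these cells in the results below was not tested apart from the values given beside them. In such bulk libraries fewer cells of a type and less RNA per cell cannot be told apart.

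Ribosomal protein genes took a larger share of the library in T143 than in T138. Their summed values made up 2.455, 1.606 and 1.365% of the signal in T143 replicates 1, 2 and 3, and 0.7401 and 0.6467% in the T138 libraries. In WT the shares were 1.404, 0.5564 and 1.012%. T143 and T138 did not overlap, whereas WT spanned a range from below both T138 libraries to above T143 replicate 3. The mean share was 1.808% ± 0.5725 (SD, n = 3) in T143, 0.6934% ± 0.06605 (SD, n = 2) in T138 and 0.9907% ± 0.4243 (SD, n = 3) in WT. Within T143 the library with the most neutrophil marker signal, replicate 3, had the smallest share, and so had replicate 2 within WT. In the T138 pair replicate 1 had more of both (neutrophil markers 0.165 against 0.0312%). Between groups T143 was the highest in both. The part of neutrophils in the share was not tested.

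**Figure D1:**
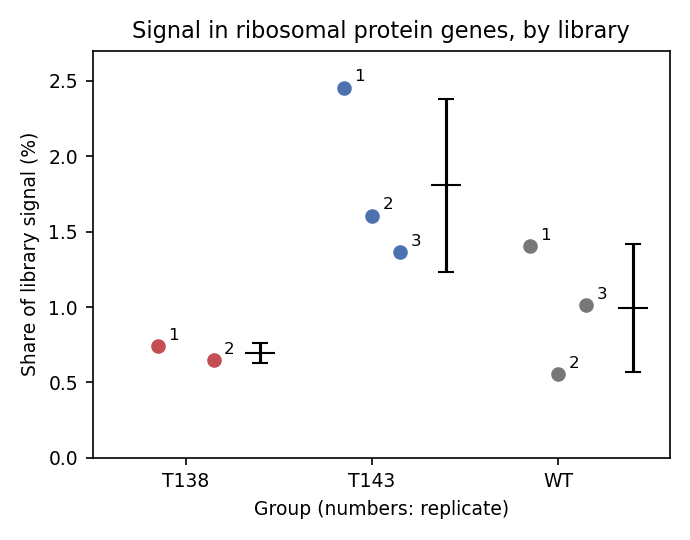
Share of the summed signal (%) in the 82 ribosomal protein genes, 1 point per library with its replicate number, and group mean ± SD (black bars; n = 2, 3 and 3). The T143 points at 1.365 to 2.455% lie above both T138 points, and the WT points at 0.5564 to 1.404% spread across them.

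In T143 against T138, 30 of the 81 tested ribosomal protein genes were called higher and 1, Rps27, was called lower. Of all genes tested, 10.8% were called higher and 10.2% lower. The median log2 change of the family was 1.12, against 0.15 for all genes tested. Level divided the family: 37 members had a mean value above 310.4, the median of tested genes, and 44 lay below it. Of the 37, 27 were called higher and none lower, beside 13.5% higher and 15% lower among all genes above that level, and their changes ran from 0.63 to 2.36 with a median of 1.43. Every T143 library exceeded both T138 libraries in 37 of the 37, where 32.2% of genes above that level showed such a gap. The level is a mean over all libraries, and T138 alone lay below 310.4 on average for Rpl13 and Rpl15, and T138 and WT for Rpl35. For such members the level and the change are not independent. Among the 44 below, 3 were called higher and 1 lower, fewer than the 10.8% and 10.2% of all genes tested, with a median change of 0.39. Their median SE was 0.61, against 0.36 for the 37, so a change of a given size was less readily called among them.

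**Figure D2:**
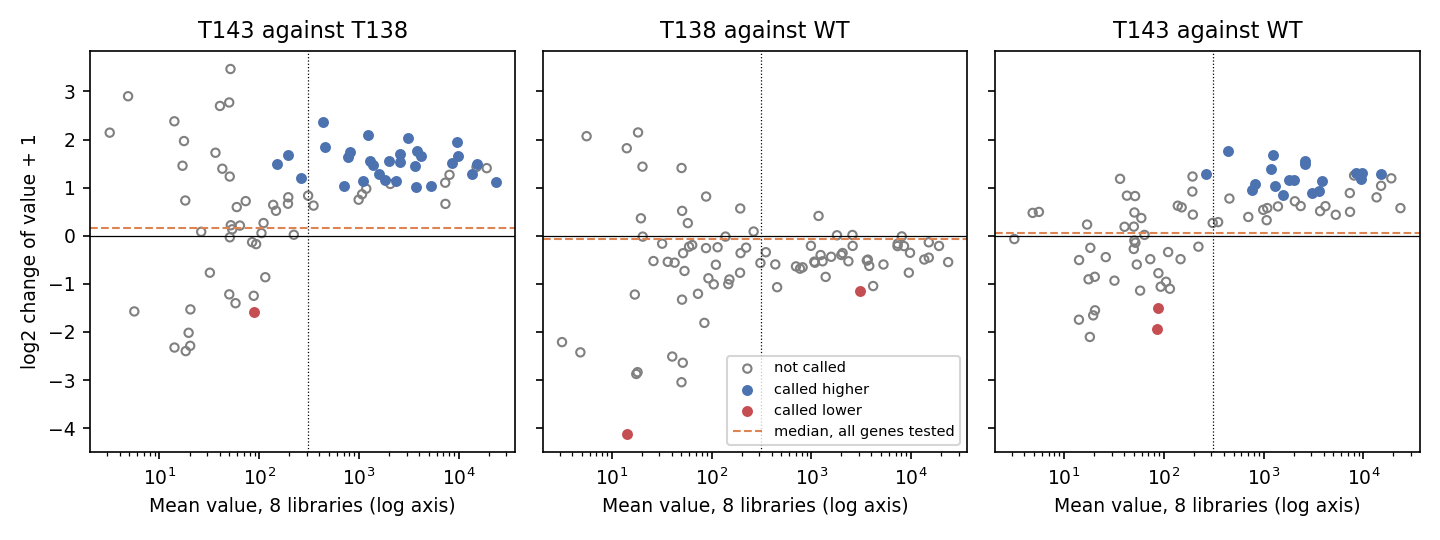
Log2 change of value + 1 against mean value over 8 libraries (log axis) for the 81 tested members, in 3 comparisons. Filled points were called, the dotted line marks the median level of 310.4 and the dashed line the median change of all genes. To the right of the dotted line all points lie above 0 in both panels of T143, and to the left they scatter on both sides.

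The count in T143 against T138 depended on the 2 T138 libraries: 6 members were called without T138 replicate 2 and 17 without T138 replicate 1, where the remaining library is assumed to vary like the other groups. All 37 stayed positive when any 1 library was left out. That outcome was fixed in advance, because every T143 library exceeded both T138 libraries in each of them.

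The P stalk, a flexible arm of the large subunit that recruits the elongation factor GTPases, was called higher in T143 in all 3 of its members. Rplp0 was at 20697, 13296 and 12504 in T143, 4200 and 3609 in the T138 pair and 9889, 3577 and 8248 in WT. The T143 libraries were the 3 highest of the 8, with a log2 change against T138 of 1.96 (SE 0.39, adjusted p = 0.00765). Rplp1 stood at 18782, 12483 and 10016 in T143 against 5361 and 3999 in T138, a log2 change of 1.52. Rplp2 was at 6020, 3879 and 3308 in T143, 1604 and 1337 in the T138 pair and 1563, 985.1 and 1973 in WT. Its T138 and WT values overlapped, so that T143 alone was apart (log2 change against T138 1.54, SE 0.30, adjusted p = 0.00606).

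Of the 19 other large-subunit members above the median level, 14 were called higher in T143 than in T138. Rpl4, which reaches into the exit tunnel for the new protein and had a mean value of 23540 over the 8 libraries (15300 per kb of transcript), was at 41493, 28778 and 25211 in T143, 14583 and 13997 in the T138 pair and 25359, 15212 and 23667 in WT. Its T138 libraries were the 2 lowest of the 8 (log2 change 1.12). Rpl35, at the rim of that tunnel, was at 1029, 734.3 and 641.1 in T143 against 203.7 and 113.5 in T138 (2.36, SE 0.44, adjusted p = 0.00469). It counts among the 37 through T143, since its means of 158.6 in T138 and 254.8 in WT lie below the median level. Rpl26, another protein of the tunnel exit, was at 2649, 1833 and 1556 against 748 and 592.7 (1.56, SE 0.29, adjusted p = 0.00495). For Rpl35 and Rpl26 the lowest T143 value exceeded the highest T138 value by more than the range within T138.

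Rpl8, a neighbour of the peptidyl transferase centre, was at 31119, 21237 and 16625 in T143 and 8211 and 7582 in T138. Its log2 change was 1.49. Rpl13a, which can leave the ribosome to repress inflammatory transcripts, was at 32747, 20516 and 17841 against 9165 and 7867, and its change of 1.43 missed the threshold (adjusted p = 0.056). Rpl22, needed for the development of alpha-beta T cells, was at 6476, 4370 and 3609 against 2506 and 2154 (log2 change 1.01, adjusted p = 0.0476). That call was lost under 12 of the 22 alternative settings.

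Among the 15 small-subunit members above the median level, 10 were called higher in T143 than in T138. Rps20, a protein of the head of the small subunit, had the smallest p of the family at 6929, 4128 and 3530 in T143, 1461 and 887.3 in the T138 pair and 2862, 1989 and 2823 in WT (log2 change 2.03, SE 0.30, adjusted p = 0.00158). Its 3 groups did not overlap, with T138 lowest and T143 highest. Rps2, which lies along the path of the mRNA, was at 1453, 1194 and 907.2 in T143 against 369.1 and 375.1 in T138 (1.64, SE 0.29, adjusted p = 0.00372). Rps24 was at 1708, 1227 and 959.2 against 297.2 and 483.5 (1.73, SE 0.34, adjusted p = 0.00589). Rps3, at the site where mRNA enters, was at 40870, 25254 and 21080 against 11151 and 9960. Its change of 1.41 was not called (adjusted p = 0.0907), although no T143 library overlapped T138.

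The 37 members moved together from library to library, also within a group. T143 replicate 1 was the highest of the 8 libraries for 36 of them and WT replicate 1 for the other. The lowest of the 8 was WT replicate 2 for 23 members, T138 replicate 2 for 9 and T138 replicate 1 for 5. Within T143, replicate 3 was lowest for 37 of 37, and within WT, replicate 2 was lowest for 36 of 37. Replicate 1 was the highest of its group for 31 of the 37 in T138, 37 in T143 and 35 in WT. On the log2 scale the median SD within groups was 0.52 for these members, against 0.22 for all genes above the median level. Measured against the mean of the 37 in the same library, it was 0.17.

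**Figure D3:**
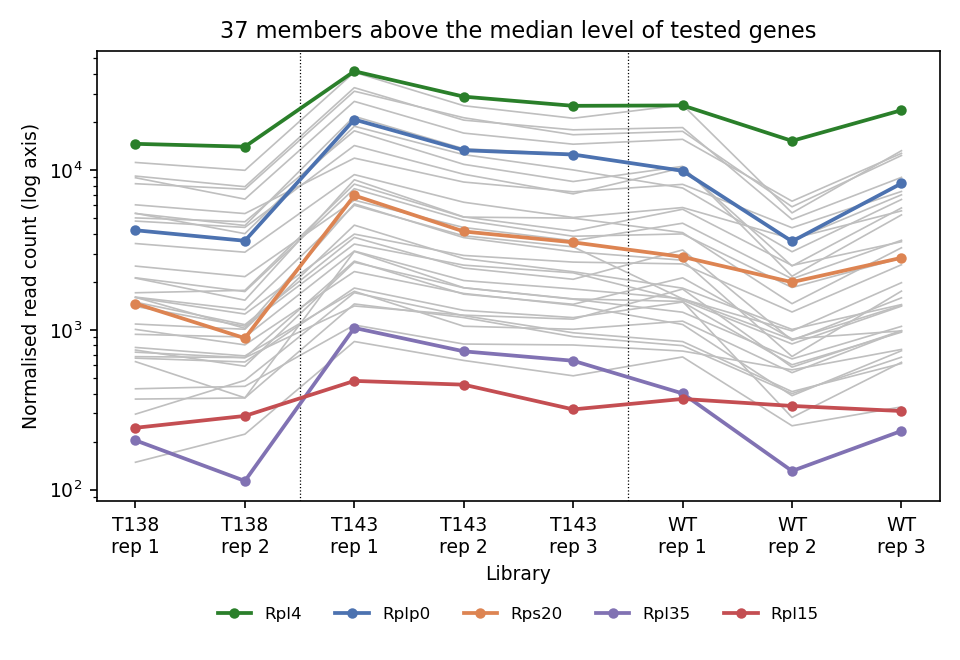
Normalised read count (log axis) of the 37 members above the median level in each of the 8 libraries. Grey lines are single genes and coloured lines 5 named genes, and lines only join the values of a gene. Nearly every line peaks at T143 replicate 1 and dips at T138 or at WT replicate 2, while Rpl35 and Rps20 span a wider range than Rpl15.

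Members also differed in how far they moved. Measured against the mean of the 37 in the same library, Rpl35 was 0.97 higher (log2) in T143 than in T138, Rps10 0.70 higher and Rps20 0.64 higher. At the other end stood Rpl15 at -0.76, and Rpl6 was at -0.64. These 5 genes were chosen after their values were seen, and the relative differences have no test. Rpl15, an early-assembling large-subunit protein, was at 479.6, 454.3 and 318.1 in T143, 244.1 and 289.6 in the T138 pair and 369.9, 334.4 and 310.8 in WT. It was not called in any of the 3 comparisons.

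Members with and without a TOP start at the annotated site were both among those called. A tract was sought only there, so this split was not a test of TOP control. In T143 against T138 the 15 with a TOP start had a median log2 change of 1.54 and 12 of them were called higher. Of the 12 without one, 8 were called higher, with a median of 1.35. The 10 whose start was not in the table had a median of 1.39. Rplp0 and Rpl26, with no tract at the annotated start shown above, were among the called members, and Rps27, with a tract, was the member called lower.

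Against WT, fewer of the family were called in T143. Of 81 members 19 were higher and 2 lower, Rps18 and Rpl3, where 11.7% of all genes tested were higher and 12.1% lower. The median log2 change was 0.50, against 0.05 for all genes tested. With quantile normalization the split was 19 higher and 5 lower. Among the 37 members above the median level, 18 were called higher and none lower, with a median of 0.93, beside 13.2% higher and 18.5% lower among all genes above that level. All T143 libraries exceeded all WT libraries in 18 of the 37, against 21.8% of genes above that level. This comparison uses the same T143 libraries as the one with T138 and is not independent of it.

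The P stalk was called higher than WT in all 3 members. Rplp2 had the smallest p of the family here (log2 change 1.56, SE 0.27, adjusted p = 0.0026), and Rplp1 (1.31, SE 0.34, adjusted p = 0.021) and Rplp0 (1.19, SE 0.35, adjusted p = 0.0338) followed. Among the large-subunit members, Rpl14 was at 3443, 2541 and 2275 in T143 against 1532, 816.8 and 1408 in WT (1.17, SE 0.25, adjusted p = 0.00732). Its T138 values of 1402 and 1055 lay inside the WT range. Rpl41, the shortest protein of the family, was at 2316, 1690 and 1427 against 1081, 387.7 and 740.2 (1.39, SE 0.33, adjusted p = 0.0121). Every coding 50-base window of Rpl41 also occurs in another annotated gene, so its reads may be shared. Rpl35 (1.76) and Rpl26 (1.03) were called higher than in WT as well. Rps10, a small-subunit protein named after its values were seen, was at 3097, 1835 and 1563 in T143 against 1507, 283.3 and 627 in WT (1.68, SE 0.53, adjusted p = 0.0462).

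The spread of the WT libraries weighed on these counts. Without WT replicate 2, 9 of the family were called, without WT replicate 3, 11, without T143 replicate 1, 6, and without T143 replicate 2, 8. With the mean level of the neutrophil markers as a covariate, none was called by limma (34 higher at an unadjusted p under 0.05), nor any of the 15547 genes, and the median was 2.74. With the same covariate 25 members were called in T143 against T138, at a median of 1.81. The covariate was 1.39 to 3.03 in WT, 9.31 and 7.52 in T138 and 11.15 to 13.83 in T143, with no overlap between groups. Fits with it cannot separate the marker level from the group, so no conclusion is drawn from them.

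T138 lay below WT in 67 of the 81 members tested, with few calls, where 8390 of all 15547 genes had a negative change. Signs of members that move together by library are not separate observations. Of 81 members none was called higher and 2 lower, Rps20 and Rpl23a, where 5.74% of all genes tested were higher and 5.3% lower. The median log2 change was -0.50, against -0.06 for all genes. By limma 19 members were lower at an unadjusted p under 0.05 and none was higher, while edgeR called 0 (13 lower at that p) and DESeq2 called 5 lower. Of the 37 members above the median level, Rps20 alone was called (-1.15, SE 0.30, adjusted p = 0.035), beside 5.94% higher and 6.45% lower among all genes above that level. The Rps20 call was lost under 7 of 22 alternatives, and without T138 replicate 2, WT replicate 1 or WT replicate 3 limma called none of the 37 (3, 2 and 5 lower, and 0, 1 and 0 higher, at an unadjusted p under 0.05). Both T138 libraries lay below all WT libraries for 9 of the 37, against 25.3% of genes above that level. Rpl4, Rpl7, Rpl7a, Rpl13, Rpl15, Rpl23, Rps2 and Rps15a were the others.

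The distance of T138 from WT depended on single libraries. Without WT replicate 2 the median was -0.78 and 6 members were called lower, and without WT replicate 1 the median was -0.29 and 1 was called. Without T138 replicate 1, 4 were called, and without T138 replicate 2 or WT replicate 3, 1. With the neutrophil markers as a covariate, which did not overlap between these groups, the median turned to 0.94. In that fit limma called no member (5 higher and 1 lower at an unadjusted p under 0.05) and none of the 15547 genes.

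Rpl23a, where the signal recognition particle docks, was at 0.98 and 0 in the T138 pair, 7.96, 5.09 and 6.19 in T143 and 22.73, 60.7 and 9.12 in WT. Together the T138 values correspond to 1 read, so no fold is given. Its call in T138 against WT (adjusted p = 0.0245) rests on a fitted change that depends on the pseudocount (-4.13 with 1, -1.96 with 8). The call was lost under 9 of 21 alternative settings. Rpl3, an early-assembling protein that shapes the peptidyl transferase centre, was at 17.91, 53.45 and 51.98 in T143, 45.28 and 36.41 in the T138 pair and 153.6, 235.4 and 84.36 in WT (T143 against WT -1.95, SE 0.58, adjusted p = 0.0336). Rps18, at the top of the small subunit, was at 27.86, 57.27 and 47.03 in T143, 107.3 and 96.52 in the T138 pair and 109.5, 144.8 and 114 in WT (-1.51, SE 0.42, adjusted p = 0.0267). Rps27, a zinc-finger protein of the small subunit, was at 43.78, 43.27 and 58.17 in T143, 124 and 173.6 in the T138 pair and 129.5, 58.57 and 75.24 in WT (T143 against T138 -1.59, SE 0.50, adjusted p = 0.0439). All 4 lay below the median level of tested genes, and each call was lost under 7 to 12 of the alternatives.

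Many members read low for genes of their kind. Among 76 members other than paralogs, 27 share every coding window of 50 bases with the transcript of another gene annotated in GENCODE vM21. Their mean value per kb of transcript ran from 15.09 to 2173 with a median of 108.7, and 3 of them were above the median level. In the 15 with 33.3% or more of their windows in no other gene (unique windows) it ran from 2680 to 17840 with a median of 13000, and all 15 were above the median level. The 15 with some but under 10% had a median of 144.4 per kb, and the 19 from 10 to under 33.3% a median of 830.1. That 830.1 is the value of Rps20, for which a transcript of 3706 nt with 360 coding was used. Rps15a, at 812.5, was divided by 5130 nt with 393 coding, so levels per kb depend on the transcript used. Across the 76 genes Spearman's rho between the unique share and the mean value per kb was 0.737, and between the number of pseudogene loci and that value -0.529. The genes share the libraries and the reference, and these are descriptions without a test, made after the values were seen. The sources used here do not say how reads matching several places were counted, so levels of members with copies are uncertain.

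**Figure D4:**
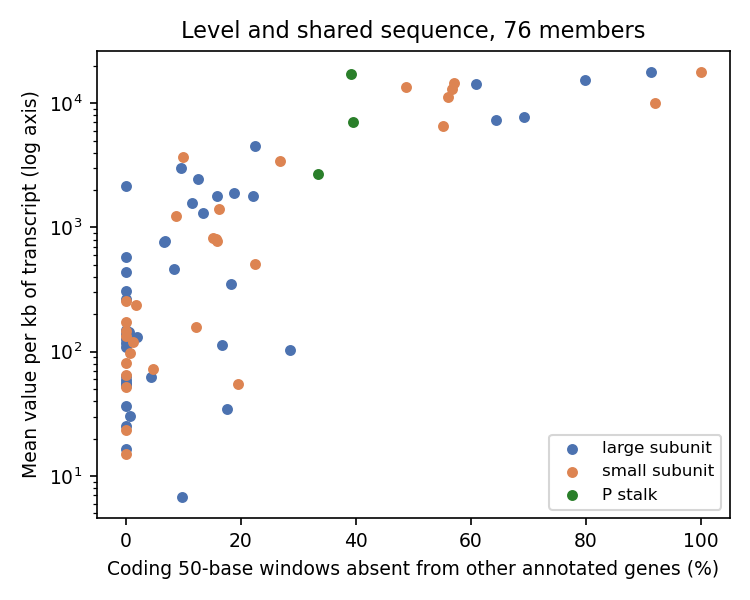
Mean value per kb of transcript (log axis) against the share of coding 50-base windows found in no other annotated gene, for 76 members other than paralogs, coloured by subunit. Members with 33.3% or more unique windows lie at 2680 or above, while those with none spread from 15.09 to 2173.

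The changes were described again in the members least open to shared reads. Of the 15 with 33.3% or more unique coding windows, 10 were called higher in T143 than in T138 (median 1.43) and 7 higher than in WT (median 1.19), and none was called in T138 against WT (median -0.22). Per kb of transcript Rpl8 (17690) and Rplp1 (17030) were among the highest of them. Of the 27 with no unique window, 2 were called higher and 1 lower in T143 against T138 (median 0.63).

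Low members with known special roles showed no common direction. Rpl5 and Rpl11, which with the 5S RNA bind Mdm2 when assembly fails, stood at 248.8, 206.2 and 175.8 and at 49.75, 40.72 and 40.84 in T143. In T138 they were at 187 and 225.2 and at 56.1 and 27.94, so neither separated the lines. Rps6, the substrate of S6 kinase, was at 276.6, 192.2 and 170.8 in T143, 91.53 and 58.42 in the T138 pair and 162.6, 120.3 and 135.3 in WT. It was called higher in T143 than in T138 (1.50, SE 0.38, adjusted p = 0.02). Rpsa, also known as a laminin receptor, was called higher too (1.69, SE 0.41, adjusted p = 0.0157), at 408, 253.2 and 230.2 against 82.68 and 94.83. Rps19, mutated in Diamond-Blackfan anaemia, was at 83.58, 50.9 and 55.69 against 29.53 and 17.78 and missed the threshold (1.39, adjusted p = 0.126). Rpl38, known for its part in translating Hox mRNAs, was at 3.98 to 6.36 in T143, 11.81 and 51.65 in the T138 pair and 11.02 to 54.31 in WT, with no call. Rps27a, made as a fusion with ubiquitin, was at 45.77 to 54.46 in T143, 30.51 and 57.57 in the T138 pair and 35.82 to 99.04 in WT. Of these 7 genes, Rps6 and Rpsa alone were called in any comparison. Rpl5, Rpl11, Rps6, Rpl38 and Rps27a have no unique coding window, Rpsa has 1.19% and Rps19 19.54%. Their reads may thus be shared with other genes, both where a change was called and where none was.

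Rpl29 was the lowest core member, at 0 in both T138 libraries, 3.98, 7.64 and 8.66 in T143 and 0.69, 6.39 and 11.4 in WT, and was not called. Of its coding windows 9.68% are unique and 81 pseudogene loci match it.

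The 4 X-linked members were read separately, because Xist differed between the groups. Rps4x was at 7642, 4846 and 3852 in T143, 2118 and 1737 in the T138 pair and 3984, 1841 and 2816 in WT (T143 against T138 1.45, SE 0.33, adjusted p = 0.0131). Rpl39 was at 1827, 1325 and 1194 in T143 against 665.4 and 629.9 in T138 (1.14, SE 0.32, adjusted p = 0.0304). Both lay inside the range of the autosomal members. Rpl10 (0.26, adjusted p = 0.692) and Rpl36a (1.97, adjusted p = 0.251), which have no unique coding window, were not called.

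Of the 6 paralogs, Rps27l alone was called. Rps27l, a p53 target beside Rps27, was at 324.4, 468.3 and 438.1 in T143, 202.8 and 153.2 in the T138 pair and 206.6, 100.1 and 220.4 in WT. It was higher in T143 than in T138 (1.20, SE 0.38, adjusted p = 0.0467) and than in WT (1.28, SE 0.34, adjusted p = 0.0198), the former lost under 13 of 22 alternatives. Rps27 itself was lower in T143 than in T138, and the difference between the 2 genes was not tested. Rps4l was at 54.13 and 131.2 in the T138 pair and 22.8 to 60.64 elsewhere. Rpl39l, a form known from testis, was at 33.46 and 47.41 in the T138 pair, 2.55 to 13.61 in T143 and 1.52 to 31.68 in WT. Rpl3l, the form of striated muscle, was at 15.75 and 5.93 in the T138 pair and 0 to 14.85 elsewhere. None of these 3 was called in any comparison.

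Genes around the family were read from lists of related genes. Of 9 ribosomal proteins named outside the symbol rule 7 were in the table. In T143 against T138, Rpl22l1 (1.62, SE 0.34, adjusted p = 0.0083), Rpl7l1 and Rps3a1 were called higher, and Rpl22l1 and Rpl36al were called higher against WT. Gnb2l1, which encodes the scaffold Rack1 of the small subunit, was at 44618, 29535 and 25863 in T143, 13109 and 13036 in the T138 pair and 28969, 7964 and 18576 in WT. T143 replicate 1 was highest and WT replicate 2 lowest, as for most of the 37 members, and Gnb2l1 was not called (1.31, adjusted p = 0.0673).

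Of 28 translation factors and other TOP mRNAs, 13 were called higher and 1 lower in T143 against T138, with a median log2 change of 0.68, beside 10.8% higher and 10.2% lower among all genes. Against WT 3 were higher and 1 lower, and T138 had 2 lower than WT, counts near the shares of all genes (11.7% higher, and 5.3% lower). Eef1b2, an exchange factor of elongation, was at 15750, 10378 and 8510 in T143 against 4223 and 3402 in T138 (1.56, SE 0.37, adjusted p = 0.0158). Eef2, which moves the ribosome along the mRNA, was at 70602, 48982 and 50923 against 32025 and 30193 (0.85, SE 0.20, adjusted p = 0.0146). The lower gene was Hnrnpa1 (-1.10, SE 0.28, adjusted p = 0.019), an RNA-binding splicing factor.

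Ribosome biogenesis genes, which encode the factors that process ribosomal RNA and assemble the subunits, were mostly lower in T138 where they were called. Of 58 tested, 22 were called higher and 1 lower in T143 against T138 (median 0.46), where all genes gave 10.8% and 10.2%. In T138 against WT 15 were lower and none higher (median -0.49), where all genes gave 5.3% and 5.74%. In T143 against WT 3 were higher and 6 lower (median 0.01), no more than the 11.7% and 12.1% of all genes. Dkc1, the pseudouridine synthase of ribosomal RNA, was at 630.9 and 669.7 in the T138 pair, 1604, 1596 and 1283 in T143 and 1161, 1378 and 1282 in WT. T138 was apart from both other groups (-0.97 against WT, SE 0.16, adjusted p = 0.00455), while T143 and WT overlapped. Utp20, a factor of small-subunit processing, showed the same order, with -0.97 in T138 against WT (SE 0.17, adjusted p = 0.00541). Rrp1b was at 774.6 and 780.6 in the T138 pair, 831.9 to 936.6 in T143 and 1338 to 1621 in WT, lower in both lines than in WT.

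Among 37 genes of the mTORC1 and S6 kinase pathway, calls went both ways: 5 higher and 5 lower in T143 against T138, 2 and 4 in T138 against WT, and 6 and 8 in T143 against WT. Among all genes 10.8% were higher and 10.2% lower, 5.74% and 5.3%, and 11.7% and 12.1% in the same order. Myc, a driver of ribosome production, was at 1008 and 874.6 in the T138 pair, 1286, 1780 and 1498 in T143 and 2643, 2538 and 3008 in WT. It was lower than WT in T138 (-1.54, SE 0.17, adjusted p = 0.000561) and in T143 (-0.85, SE 0.15, adjusted p = 0.00323), with no overlap. Larp1, the TOP-binding repressor, was lower in T138 than in WT (-0.76, SE 0.15, adjusted p = 0.00946). Ddit4, an inhibitor of mTORC1, was higher in T143 than in T138 (1.77, SE 0.26, adjusted p = 0.00141), at 3037, 3474 and 4266 against 1003 and 1078. Sesn3, which also restrains it, was higher too (1.44, SE 0.25, adjusted p = 0.00311). Eif4ebp3, of the 4E-BP family of translation repressors (-1.17, SE 0.20, adjusted p = 0.00325), and Nprl3, of the GATOR1 complex that inhibits mTORC1 (-0.95, SE 0.19, adjusted p = 0.00666), were lower in T143 than in T138. Rragd was lower than WT in both lines, and Mtor itself, added after its values were seen, was not called in T143 against T138 (-0.11, adjusted p = 0.684).

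Of 16 genes of the p53 response that failed ribosome assembly can engage, 1 was higher and 3 were lower in T143 against T138, 2 were higher in T138 against WT, and 1 was higher and 2 were lower in T143 against WT. The gene called higher in both T143 comparisons was Rps27l, itself a member of the family described above. Each count is of few genes, beside the shares of all genes called given for the mTORC1 list. Pmaip1, a cell death gene, was at 3100 and 3322 in the T138 pair, 376.1, 603.2 and 1007 in T143 and 836.2, 890.3 and 547.2 in WT (T138 against WT 2.11, SE 0.35, adjusted p = 0.00414). Cdkn1a, the cell cycle inhibitor, was at 374 and 508 in the T138 pair, 71.64 to 238.9 in T143 and 26.62 to 85.12 in WT (3.21, SE 0.59, adjusted p = 0.00701). For both genes the T138 libraries were the 2 highest of the 8. Mitochondrial ribosomal proteins, encoded by 76 tested genes of a separate family, had 6 higher and none lower in T143 against T138 (median 0.51) and 6 higher against WT (median 0.37), fewer than the 10.8% and 11.7% of all genes called higher.

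Ribosomal protein mRNAs are short, and short transcripts in general differed between these libraries. The transcripts of the 37 members have a median length of 860 nt, from 394 to 5130. The longest are those used for Rps15a (5130 nt, 393 coding) and Rps20 (3706 nt, 360 coding). Among other genes above the median level, the 117 of up to 700 nt had a median log2 change of 0.63 in T143 against T138, 0.74 in T143 against WT and 0.14 in T138 against WT, and 43.6% of them were called higher in T143 than in WT. The 2550 over 4000 nt had medians of 0.06, -0.09 and -0.16. By library, the median log2 value of the short genes minus that of the long ones was -1.32 and -1.39 in the T138 pair, -0.85, -1.05 and -0.66 in T143 and -1.42, -2.41 and -1.61 among WT libraries. WT replicate 2, the lowest WT library for 36 of the 37 members, had the smallest value. The members' median of 860 nt falls in the next longer bin, of 252 other genes above the median level. Medians in that bin were 0.29 in T143 against T138, 0.44 in T143 against WT and 0.14 in T138 against WT. Of its genes 22.6% were called higher in T143 than in WT. The members' medians of 1.43 in T143 against T138 and -0.49 in T138 against WT lay above and below those of both bins. In T143 against WT the members' 0.93 lay above the 0.44 of that bin and the 0.74 of the shortest genes. The part of transcript length in the members' changes was not tested.

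**Figure D5:**
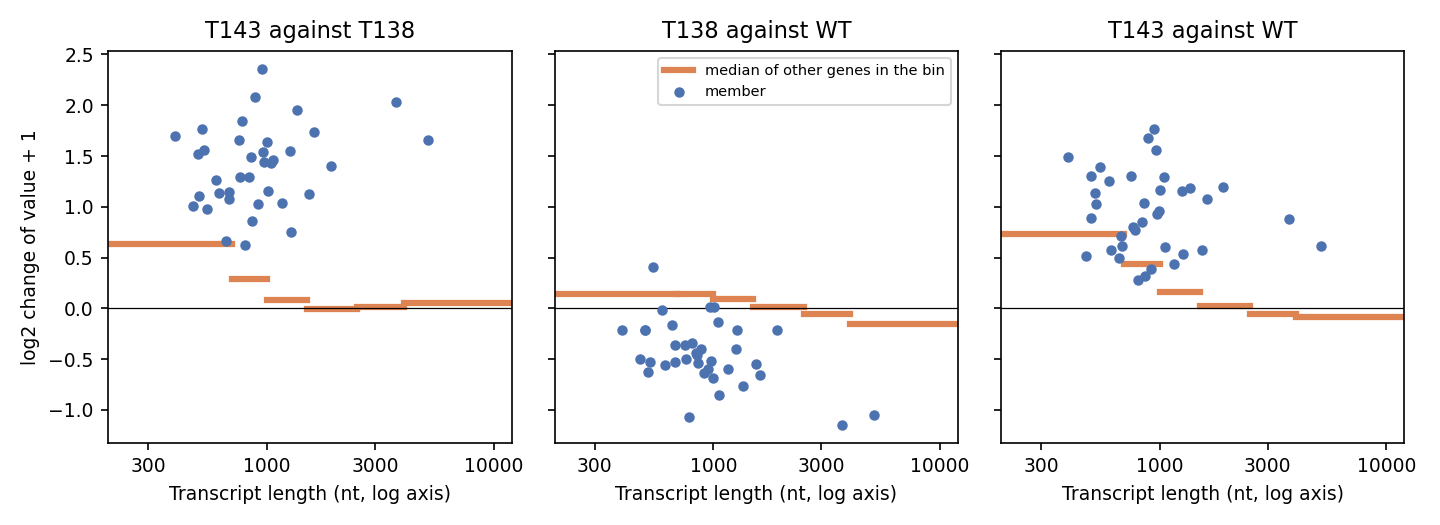
Log2 change of value + 1 against transcript length (nt, log axis) for the 37 members above the median level (points) and the median change of other genes above that level in 6 length bins (bars). In T143 against T138 the members other than Rpl15 lie above the bar of 0.63 for the shortest genes, in T138 against WT most lie below its 0.14, and in T143 against WT they spread around 0.74.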

How the data were processed

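Stranded mRNA libraries were made from sorted cells, per the labels' protocols. STAR 2.5.2b, CASAVA 1.8.2, edgeR and HOMER 4.8, and the build mm10, are listed in the submitters' processing notes with no role. Read length and the handling of reads with several matches are not given in the sources used here. The authors deposited a signal per gene and library, gene counts divided by a factor per library. All values were whole multiples of 1 read within a tolerance of 0.01, so whole reads were recovered. Groups follow the labels. The main test was limma 3.58.1 (R 4.3.3, trend, robust) on log2(value + 1) over all 8 libraries without covariates, for genes of at least 1 in 2 libraries, with Benjamini-Hochberg adjustment at 0.05. The pseudocount understates changes of low genes. The script was checked on simulated data. edgeR 4.0.16 (quasi-likelihood) and DESeq2 1.42.0 on recovered reads were alternatives, beside other pseudocounts, filters, scalings, covariates and left-out libraries. Whether libraries came from separate mice is not stated, so the p-values rest on variation among these libraries that could be technical. Named members were the 6 called with the smallest p in each direction and comparison, the 4 with the highest and the 4 with the lowest mean value, members with known roles, X-linked members and paralogs. In other lists up to 4 genes with the smallest p were named, and exceptions are stated. A few genes that the rule names, or that stood out, are not reported here.

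The members and gene lists were chosen with earlier results of these data known. The split at the median level, the comparison by shared sequence, the length bins and the relative values were chosen after the values were seen. Transcript lengths and shared sequence come from GENCODE vM21, where all 82 members matched, and start windows from RefSeq GRCm38.p6, where 61 matched.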

Additional observations from a re-analysis of the deposited data

How the results depend on the processing

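The replicate block used the shared replicate numbers. Deviations of the 7 same-numbered pairs correlated at -0.0623 to 0.0548. Among the 37 members above the median level, replicate 1 was yet the highest of its group for most genes in all 3 groups. Whether the numbers pair the libraries was not tested for the members. With the block 32 members were called in T143 against T138, 27 in T143 against WT and 4 in T138 against WT (3 above the median level). Counts below are of all members, then of those above the median level. Leaving out 1 library gave 6 to 39 (5 to 35) in T143 against T138 with a median of 0.9147 to 1.261, 1 to 6 (0 to 6) in T138 against WT with a median of -0.7779 to -0.2885, and 6 to 29 (5 to 27) in T143 against WT. Without a filter on low values they were 13 and 11 in T143 against T138, 0 and 0 in T138 against WT (12 lower at an unadjusted p under 0.05 by limma) and 6 and 5 in T143 against WT. In T138 against WT a minimum of 50, or a fit of only the 2 groups, gave 1, quantile normalization 4, edgeR 0 and 0, and DESeq2 5 and 2. Median centring gave 13 and 10 in T143 against WT. With T143 replicate 1 and WT replicate 1 out, the median was 0.9147 in T143 against T138 and -0.2885 in T138 against WT, with 0 and 0 called there. With T138 replicate 1 and T143 replicate 3 out, 19 and 15, 4, and 13 were called in the 3 comparisons in the order of T143 against T138, T138 against WT and T143 against WT. The neutrophil covariate gave medians of 1.805 and 2.626 in T143 against T138, 0.9434 and 1.198 with 0 called in T138 against WT, and 2.735 and 3.879 with 0 called in T143 against WT. With the marker genes and the 50 highest other genes out of the total, the mean share of signal in members was 0.7691% in T138, 2.016% in T143 and 1.092% in WT. The cause of these differences was not tested. The median of all genes in T143 against T138 moved from 0.152 to 0.0628 with median centring and 0.0136 with quantile normalization. Of 2423 values of single genes under the alternatives, 813 belonged to changes called as reported: none of these turned sign and 182 lost the call. Another 35 gained a call. Of the 1575 called neither way, 88 turned sign. T143 libraries hold the fewest reads, which limits low members most.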

Other observations

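Several low members were read in 1 T138 library and at 0 in the other. Rps28 was at 43.31 in T138 replicate 1 and 0 in replicate 2, Rpl34 at 55.12 and 0, and Rpl19 at 54.13 and 0. These 3 genes were chosen after their values were seen.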
